A study of Mus musculus with 2 samples.

Results

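The genes described here are amino acid transporter genes, compared between dendritic cells of wild-type mice and of mice without the microRNA miR-155. They were taken by name: each probe set that the platform annotation ties to exactly 1 gene counted if the symbol began with Slc1a, Slc3a, Slc6a, Slc7a, Slc36a, Slc38a or Slc43a, and Slc7a2 and Slc7a11 were left out. This gave 61 of 18193 named genes, with 119 of 34945 probe sets. Of the 61 symbols, 3 end in os (Slc6a19os, Slc7a6os and Slc36a1os) and name genes on the strand opposite a transporter gene. The families also hold carriers of related molecules, such as taurine, creatine, betaine and the monoamine neurotransmitters.

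Both samples, labelled wild type + LPS and miR155-/- + LPS, came from C57BL/6 marrow grown for 7 days with GM-CSF at 20 ng/ml and then given LPS, a bacterial product that activates innate immune cells, at 10 ng/ml. Each genotype had 1 Affymetrix array, and untreated cells were not analysed here. The values are therefore those of 2 RNA samples with no replicate check, and no p-value was computed. The sources used here do not give the number of mice, the duration of LPS or the way the miR-155 allele was made.

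Cells take up amino acids through carriers with overlapping substrates. Slc3a2 is a heavy chain that holds several Slc7a light chains at the cell surface as exchangers. Slc1a and Slc38a carriers use the sodium gradient to bring in glutamate, glutamine and small neutral amino acids, and Slc36a carriers use protons. Some carriers sit on the lysosome, where amino acids released from digested protein leave for the cytosol and where the growth kinase complex mTORC1 senses them. Activated dendritic cells draw on these routes for protein, glutathione and energy. LPS induces miR-155, a small RNA that lowers transcripts matching its seed. The mature 5p strand, the product the knockout is meant to lack, is shown with its seed, bases 2 to 8, in capitals (RefSeq, GRCm38.p6, chr16:84714143-84714165, + strand).

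mmu-miR-155-5p: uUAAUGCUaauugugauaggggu

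Signals below are intensities after quantile normalization of the 2 arrays, and a difference is the log2 signal in the knockout minus that in wild type, relative to the bulk of all genes. The medians of the deposited intensities were 58.38 and 78.31. Without scaling, the median measured gene was 0.54 higher on the knockout array. A gene counted as measured if at least 1 array lay above a floor of 67.61, the median of all normalized values, which is no detection call. With 1 array not above the floor, that array was set to the floor and the fold is written "at least". The only internal error estimate is the disagreement among probe sets of 1 gene, an SD of 0.29 over 11653 probe sets of 4410 genes. Among the members it was 0.27 (35 probe sets of 14 genes). Neither SD holds variation between mice or cultures. The host gene of the microRNA, Mir155hg, was 7.13-fold lower in the knockout (1136 against 159.3); where that probe set sits relative to the deletion was not analysed here.

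At 1.5-fold, 1 measured transporter gene was higher and 3 were lower, a size reached by 8.67% of all measured genes in either direction. Of the 61 genes, 37 were measured: 32 in both genotypes, 1 in wild type only and 4 in the knockout only. The remaining 24 were below the floor on both arrays. In the knockout 22 of the 37 were higher and 15 lower (median 0.14), against 6115 higher, 5756 lower and a median of 0.01 over all 11878 measured genes. The split was 23 to 14 with loess, but 28 to 9 with median centring, 29 to 8 with hybridisation controls and 37 to 2 without scaling (39 measured), settings in which the median of all genes was also higher, by 0.14, 0.23 and 0.54. Without the opposite-strand genes the members' median was 0.11. In 20 of 37 measured members the difference lay within the probe set SD, against 7989 of all 11878 measured genes. Past it, 10 members were higher and 7 lower, against 2020 and 1869 of all measured genes. No member was at least 2-fold higher, a size reached by 0.572% of all measured genes. A single member, the glutamate carrier gene Slc1a2, was at least 2-fold lower, against 0.615% of all genes. At 1.5-fold, 1 member was higher (Slc36a4; background 4.57%) and 3 were lower (Slc1a2, Slc6a15 and Slc6a17; background 4.10%). These shares rest on so few genes that nothing about the families is read from them.

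**Figure D1:**
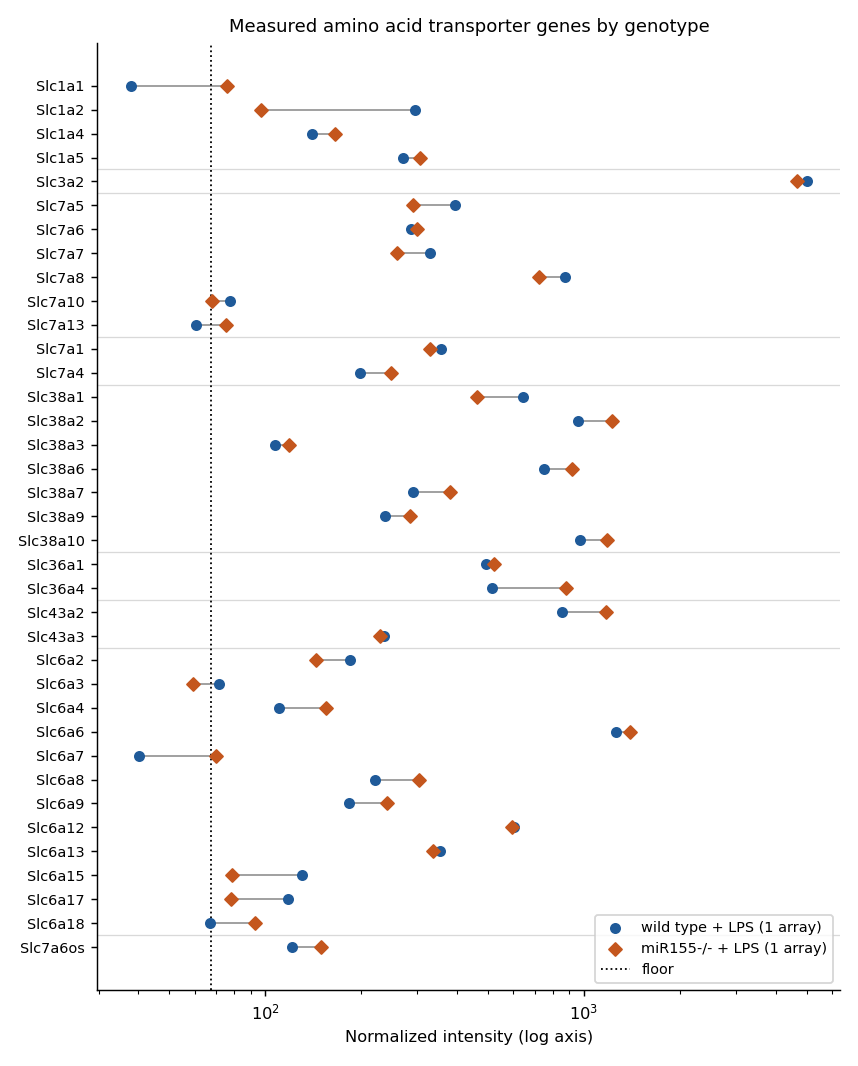
Normalized intensity (log axis) of the 37 measured transporter genes on the wild type + LPS array (circles) and the miR155-/- + LPS array (diamonds), grouped by family, with 1 array per genotype and the floor of 67.61 as a dotted line. Among genes measured in both genotypes Slc1a2 has the longest line, from 295.9 to 97.05, while Slc3a2, at 4992 and 4661, nearly coincides.

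**Figure D2:**
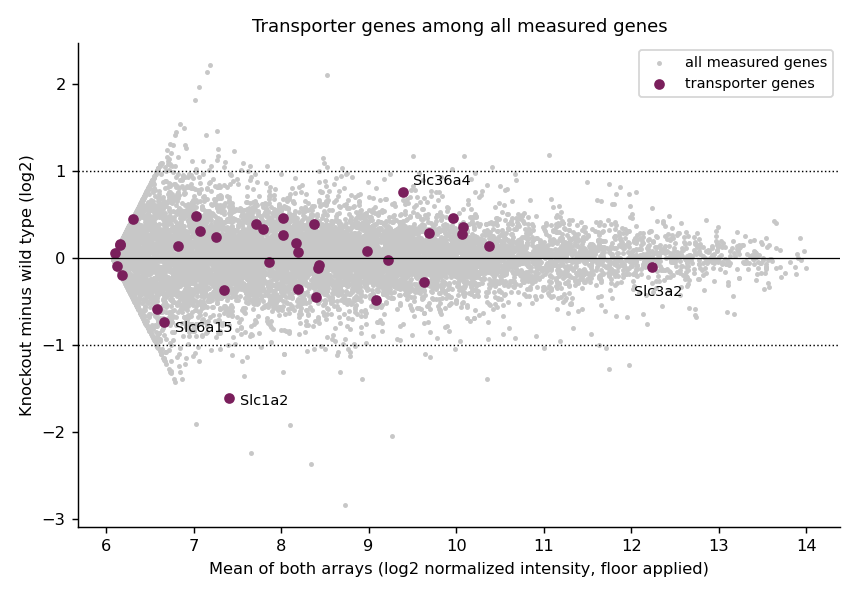
Difference (knockout minus wild type, log2) against the mean of both arrays (log2 intensity, floor applied) for all 11878 measured genes in grey and the 37 transporter genes in purple; dotted lines mark 2-fold. Slc1a2 lies below the lower line at -1.61, and Slc36a4 at 0.77 is the highest transporter gene.

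The Slc1a family carries glutamate and aspartate (Slc1a1, Slc1a2, Slc1a3, Slc1a6 and Slc1a7) or small neutral amino acids (Slc1a4 and Slc1a5). Slc1a2 encodes GLT-1, the main glutamate carrier of astrocytes. The probe set used read 295.9 for wild-type and 97.05 for knockout cells, a difference of -1.61 or 3.05-fold lower. A further measured probe set read 210.4 and 106, a difference of -0.99. Both measured probe sets were thus lower in the knockout, and the smaller difference is close to 2-fold. Its other 3 probe sets were below the floor on both arrays, as was 1 probe set shared with the noncoding gene Gm13872 (65.02 and 16.7), which is no member. Relative to the median gene, the difference was between -1.64 and -1.62 under each of 4 other scalings. It was -0.42 with the floor at the 75th percentile, which lies above the knockout signal, and the gene was below the floor on both arrays when its 5 probe sets were averaged.

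Slc1a5, the glutamine carrier ASCT2, read 271.1 and 306.8 (difference 0.18), and Slc1a4, the alanine, serine and cysteine carrier ASCT1, read 140.5 and 166 (0.24). Both differences lay within the probe set SD. Slc1a1, a neuronal and epithelial glutamate carrier, read 37.95 in wild type and 75.88 in the knockout, at least 1.12-fold higher, with 1 of 3 probe sets measured. Slc1a3, Slc1a6 and Slc1a7 were below the floor on both arrays.

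Markers of other cell types did not share one direction in the knockout. Summed signals below take in all genes of a list, also those below the floor, without applying the floor. All 4 measured markers of 5 for B and plasma cells were lower, with summed signals of 894.4 and 233.6, and Cd79a was below the floor on both arrays. All 4 measured markers of 5 for mast cells and basophils were lower (600.4 and 252.5), with Fcer1a below the floor on both. Of these, 3 in each list were above the floor in wild type alone and so could count only as lower. Neuron and glia markers had 2 of 4 measured genes lower (837.7 and 851.1), with Snap25 and Tubb3 below the floor. The part of these cells in the Slc1a2 difference was not tested, and in a bulk sample fewer cells of a type and less RNA per cell cannot be told apart. All 11 dendritic cell markers were measured, 8 of them lower (median -0.13; summed signals 52501 and 47918). Of 6 granulocyte markers 5 were lower, although their summed signals were 6595 and 7633. T and NK cell markers had 1 of 2 measured genes lower (494.4 and 368.5), with Cd3e, Cd3g and Ncr1 below the floor. Epithelial markers had all 3 measured genes lower, by at most 0.10 in size, with Krt18 below the floor. Among 8 macrophage markers 6 of 7 measured were higher, with a median of 0.20 and summed signals of 25223 and 28439. The growth protocol in the labels names macrophages while the sample labels name dendritic cells.

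The heavy chain gene Slc3a2, which encodes CD98hc, read 4992 and 4661, a difference of -0.10 at its only probe set. It was 0.00 with median centring, 0.10 with hybridisation controls and 0.43 without scaling. The other heavy chain gene, Slc3a1, which belongs to the kidney cystine carrier, was below the floor on both arrays. Of the Slc7a light chains 4 of 6 measured genes were lower (median -0.23, range -0.44 to 0.15), where 48.5% of all measured genes were lower. In 4 of the 6 the difference lay within the probe set SD, against 7989 of all 11878 measured genes, and none reached 1.5-fold. Slc7a5, the LAT1 carrier of large neutral amino acids, read 393.9 and 289.9 (-0.44, 1.36-fold lower), with 1 probe set. Slc7a7, the y+LAT1 light chain that exports cationic amino acids in macrophages, read 329.2 and 258.3 (-0.35). Its second measured probe set read 148 and 99.37 (-0.57), so both were lower. Slc7a8, which encodes the related light chain LAT2, read 873.2 and 722 (-0.27), inside the probe set SD. Slc7a6, the y+LAT2 light chain, read 285.9 and 300.2 (0.07), and its other probe set also differed by 0.05. Slc7a10, the carrier Asc-1, read 77.37 and 67.86, both near the floor, and Slc7a13 read 60.74 and 75.13, at least 1.11-fold higher. Slc7a9, Slc7a12 and Slc7a15 were below the floor. On the deposited values Slc7a5, Slc7a7 and Slc7a8 were higher in the knockout by 0.14, 0.22 and 0.34, all less than the shift of 0.54 of the median gene, so they are lower relative to other genes and not in deposited signal.

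Of the cationic carriers of arginine and lysine, 2 of 4 were measured. Slc7a1, the carrier CAT1, read 356.5 and 329.5 (-0.11), with its other measured probe set at 0.01, so its probe sets had no common direction. Slc7a4, a family member whose transport role is uncertain, read 197.7 and 248.6 (0.33), with 2 of 2 measured probe sets higher. Slc7a3 and Slc7a14 were below the floor.

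In the Slc38a family of sodium-coupled neutral carriers 7 of 9 genes were measured, all in both genotypes. Of these 6 were higher (median 0.27), where 51.5% of all measured genes were higher. In 4 of the 7 the difference lay within the probe set SD, against 7989 of all 11878 measured genes. Past it, 2 were higher and 1 lower, against 2020 and 1869 of all measured genes. Nothing about the family is read from 7 genes. None reached 1.5-fold. Slc38a2 (SNAT2), which cells make more of when amino acids are scarce, read 955.2 and 1227 (0.36). Its other measured probe sets differed by 0.66 and by less than 0.01 in size, so 2 of 3 were higher. Slc38a7, a lysosomal glutamine carrier, read 290.3 and 381 (0.39) at its single probe set. Slc38a9, the lysosomal arginine sensor upstream of mTORC1, read 236.8 and 285.5 (0.27) at the probe set used. All 5 of its measured probe sets were higher, with differences from 0.15 to 0.80. Slc38a6 read 750.7 and 914.6 (0.28), but its second probe set was lower at -0.13. Slc38a10 read 973.8 and 1178 (0.27), and only 3 of its 6 measured probe sets were higher, the lowest at -0.98. With all its probe sets averaged the difference of Slc38a10 was -0.04. Slc38a3, the SNAT3 glutamine carrier, read 107.3 and 118.5 (0.14), with 2 of 2 measured probe sets higher. Slc38a1 (SNAT1), a glutamine carrier, was the single lower member at 641.5 and 460.8 (-0.48), with its other probe set at -0.09. Without scaling it too was higher, by 0.12. Slc38a4 and Slc38a5 were below the floor.

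**Figure D3:**
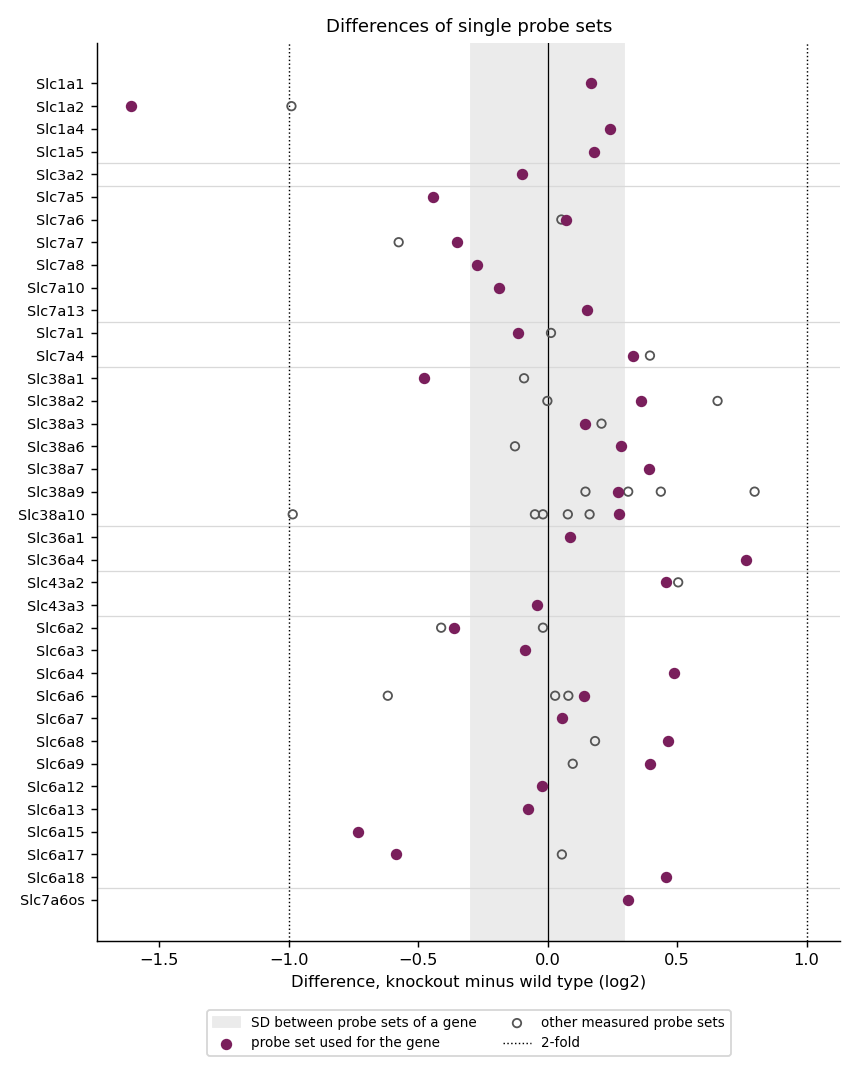
Difference (knockout minus wild type, log2) of every measured probe set of the 37 measured transporter genes, filled for the probe set used and open for the others; grey is the SD of 0.29 among probe sets of 1 gene and dotted lines mark 2-fold. Both Slc1a2 points lie far to the left and all 5 Slc38a9 points to the right, whereas the 6 of Slc38a10 spread from -0.98 to 0.27.

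The proton-coupled family held the highest difference of all members. Slc36a4, a carrier of proline and tryptophan found on inner membranes, read 514.8 in wild-type and 875.6 in knockout cells, a difference of 0.77 or 1.70-fold, at its only probe set. Relative to the median gene it stayed between 0.75 and 0.83 under 8 other settings. Among the 3959 genes in the same upper level range, the central 90% of differences ran from -0.41 to 0.41, and this value lies outside it, as does that of Slc38a1. Slc1a2 lay outside the middle range (-0.52 to 0.55) and Slc6a15 outside the low one (-0.66 to 0.685). Some genes lie outside such a range by construction, so nothing about the members is read from this. Slc36a1, the lysosomal proton and amino acid carrier PAT1, read 492.1 and 522 (0.09). Slc36a2 and Slc36a3 were below the floor.

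In the Slc43a family, Slc43a2, the LAT4 carrier of branched-chain amino acids and phenylalanine, read 851.9 and 1170 (0.46, 1.37-fold higher). Its second measured probe set read 333.4 and 472.8 (0.50), so both were higher. This too lay past the upper end of the range of genes at that level. Slc43a3, which carries purine nucleobases and not amino acids, read 236.4 and 229.6 (-0.04). Slc43a1 (LAT3) was below the floor.

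The Slc6a family moves amino acids, neurotransmitters and osmolytes with sodium and chloride. Of its 20 genes 12 were measured, 6 higher and 6 lower, with a median of 0.02. Slc6a6, the taurine carrier, read 1264 and 1391 (0.14); a second probe set read 795.1 and 518.5 (-0.62), so its probe sets disagreed. Slc6a8, the creatine carrier, read 220.5 and 304.6 (0.47) and 2 of 2 probe sets were higher. Slc6a9, the glycine carrier GlyT1, read 182.9 and 240.3 (0.39), also with 2 of 2 higher. The betaine and GABA carrier Slc6a12 read 601.4 and 592.8 (-0.02), and its neighbour in function Slc6a13 read 354.2 and 336.2 (-0.08). Those signals were nearly the same in both genotypes.

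The neutral amino acid carrier Slc6a15 was lower, at 130.8 and 78.7 (-0.73, 1.66-fold), with 1 probe set and a knockout signal near the floor. Slc6a17, a synaptic vesicle carrier, read 117.6 and 78.35 (-0.59), just at 1.5-fold. Its other measured probe set read 93.99 and 97.63 (0.05). Each of 4 other scalings turned to that probe set, and relative to the median gene the difference was then -0.03 to 0.04. With all 3 probe sets averaged, including an unmeasured one (16.19 and 42.98), the difference was 0.03. The place of Slc6a17 among the lower genes thus depended on the probe set. The serotonin carrier Slc6a4, known from platelets and mast cells, read 110.4 and 154.9 (0.49). The noradrenaline carrier Slc6a2 read 184.9 and 144.1 (-0.36), with 3 of 3 measured probe sets lower. Near the floor, Slc6a18, a kidney carrier, was at least 1.37-fold higher (67.19 and 92.72). Slc6a7, the brain proline carrier, read 40.18 and 70.27 and Slc6a3, the dopamine carrier, 71.82 and 59.33. Slc6a5, Slc6a11, Slc6a14, Slc6a16, Slc6a19, Slc6a20a, Slc6a20b and Slc6a21 were below the floor. Of the opposite-strand genes, Slc7a6os read 121 and 150 (0.31) and the other two were below the floor; strand specificity of these probe sets was not tested.

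Of the 17 members with 2 or more measured probe sets, 7 had all of them higher, 4 all lower and 6 in both directions. The remaining 20 rest on 1 measured probe set. Relative to the median gene, 32 of the 37 measured members kept their direction under each of 4 other scalings (none, median centring, hybridisation controls and loess). The exceptions were Slc1a1, Slc7a13, Slc6a7, Slc6a12 and Slc6a17, all near the floor or with differences near 0 or unlike probe sets.

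Promoter windows, from 250 bases before to 50 after an annotated start, were present for 45 of the 61 genes (24 of the 37 measured). The windows of the measured genes with the lowest and highest difference are shown because the results turn on these genes (RefSeq, GRCm38.p6, + strand, chr2:102706188-102706487 for Slc1a2 and chr9:15709488-15709787 for Slc36a4).

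Slc1a2: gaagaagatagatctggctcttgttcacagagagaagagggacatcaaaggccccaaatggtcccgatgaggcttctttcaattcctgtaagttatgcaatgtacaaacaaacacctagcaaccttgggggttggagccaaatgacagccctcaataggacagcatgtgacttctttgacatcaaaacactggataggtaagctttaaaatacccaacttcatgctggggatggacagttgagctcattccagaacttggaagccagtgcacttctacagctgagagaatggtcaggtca

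Slc36a4: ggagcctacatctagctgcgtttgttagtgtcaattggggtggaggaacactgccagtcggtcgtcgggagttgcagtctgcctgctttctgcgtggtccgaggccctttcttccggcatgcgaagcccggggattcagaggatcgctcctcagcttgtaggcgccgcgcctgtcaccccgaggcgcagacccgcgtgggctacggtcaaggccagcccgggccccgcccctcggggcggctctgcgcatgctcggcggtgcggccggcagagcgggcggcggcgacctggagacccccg

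The windows differ in base composition: that of Slc1a2 holds 1 CpG at 45.7% G and C, and that of Slc36a4 32 CpG at 69%, against medians of 7 and 52.7% over 32851 windows. Each window was searched on both strands for TGATGNAA, the core of the C/EBP-ATF element through which ATF4 answers amino acid shortage, TCACGTGA, a core of the lysosomal CLEAR element, and GAGGAAGT, a form of the PU.1 site. None of these letters occurs in the windows of Slc1a2 and Slc36a4. TGATGNAA occurred in 3.97% of all windows, or for 4.51% of genes with a window. Among the members it occurred in windows of Slc1a4, Slc7a7 and Slc6a21. TCACGTGA occurred in 0.974% of windows (1.12% of genes) and, among the members, for Slc36a1. GAGGAAGT occurred in 3.20% of windows (3.69% of genes) and, among the members, for Slc43a1. The stretches around the matches in measured members are given with the match in capitals, on the strand of the gene: Slc1a4 (chr11:20332684-20332743, - strand), Slc7a7 (chr14:54417912-54417971, - strand) and Slc36a1 (chr11:55204310-55204369, + strand). Slc7a7 holds another match further upstream, and the match shown also lies in the window of an alternative start.

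Slc1a4: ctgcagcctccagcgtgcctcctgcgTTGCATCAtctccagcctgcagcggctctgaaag

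Slc7a7: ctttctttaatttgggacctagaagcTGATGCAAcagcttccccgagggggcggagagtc

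Slc36a1: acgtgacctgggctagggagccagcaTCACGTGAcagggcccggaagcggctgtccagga

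Of these genes, Slc7a7 was lower (-0.35), and Slc1a4 (0.24) and Slc36a1 (0.09) lay within the probe set SD. A match of letters is a description and no evidence of binding.

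Genes that use or sense the transported amino acids were listed by pathway. Enzymes of glutamine, glutamate and glutathione metabolism lay on the higher side: all 16 were measured, 11 higher and 5 lower (median 0.32, against 0.01 over all genes). At 1.5-fold, 5 of 16 were higher and none lower, where the background is 4.57% and 4.10%. The lists were chosen with earlier results of these data known, so nothing about this pathway is read from these shares. Gss, glutathione synthetase, read 365.9 and 604.2 (0.72), and Gclm, the modifier subunit of the enzyme making the glutathione precursor, read 2825 and 4352 (0.62). Glul, glutamine synthetase, read 908.3 and 1395 (0.62). Each of these 3 genes had 2 of 2 measured probe sets higher. The alanine transaminase gene Gpt2 was at least 2.12-fold higher (64.62 and 143.5), with 3 of 3 measured probe sets, and Gpt read 67.8 and 107.4 (0.66), starting at the floor. With averaged probe sets, or with the floor at the 75th percentile, 3 genes of this list reached 1.5-fold, and the medians were 0.22 and 0.32.

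The other lists had medians from -0.09 to 0.15, against 0.01 over all measured genes. Genes of the ATF4 response to amino acid shortage had 11 of 23 measured genes higher and 12 lower, with a median of -0.01; Ddit4, an inhibitor of mTORC1, read 257.6 and 143.3 (-0.85). Cytosolic aminoacyl-tRNA synthetases, which load amino acids onto tRNA, had 10 of 19 higher, with a median of 0.01; Vars, the valine enzyme, was at least 2.48-fold higher (64.67 and 167.7) at its single measured probe set.

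Genes of mTORC1 and lysosomal sensing had 16 of 33 higher and a median of -0.02. Wdr59, a subunit of the GATOR2 complex that relieves mTORC1 inhibition, was 2.03-fold lower (310.8 and 153.4), and Itfg2, of the KICSTOR complex, read 227 and 142.7 (-0.67), each with 1 measured probe set. Sesn1, a member of the sestrin family of leucine sensors, read 135.5 and 245.2 (0.86), and Deptor, an mTOR inhibitor, 184.4 and 284.2 (0.62). Both had 4 of 4 measured probe sets higher.

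Enzymes of branched-chain, tryptophan and serine metabolism had 8 of 12 measured genes lower (median -0.09). Shmt1, the cytosolic serine hydroxymethyltransferase, read 175 and 74.41 (-1.23) with 2 of 2 probe sets lower, and Cbs, which starts cysteine synthesis from homocysteine, read 76.79 and 121.5 (0.66) with 1 of 2 higher. Among amino acid and peptide carriers of other families, 10 of 14 measured genes were higher and 4 lower (median 0.15); none reached 1.5-fold.

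**Figure D4:**
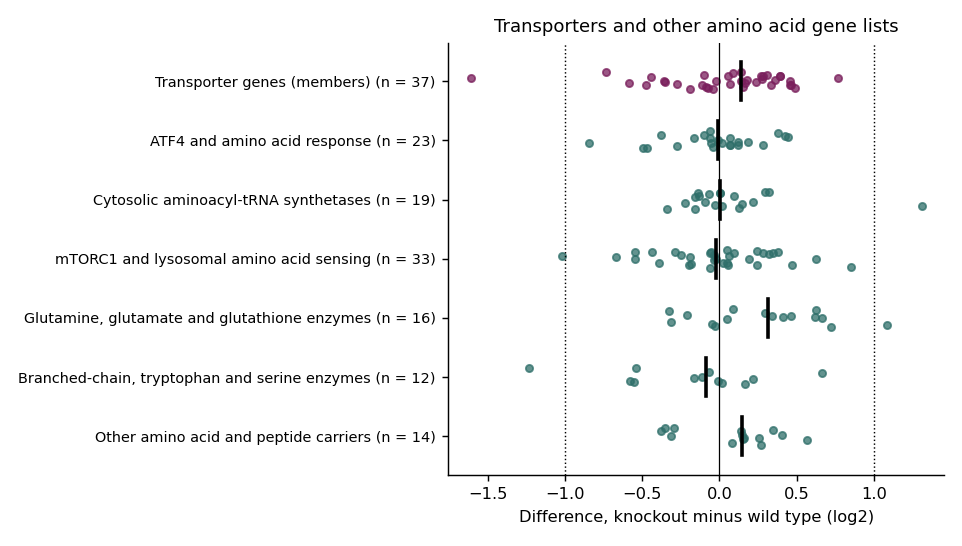
Difference (knockout minus wild type, log2) of each measured gene, 1 point per gene, for the 37 transporter genes and 6 lists of related genes; black bars are medians, dotted lines mark 2-fold and points are spread vertically only for legibility. The bar of the glutamine, glutamate and glutathione enzymes stands at 0.32, and those of the other lists lie between -0.09 and 0.15.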

How the data were processed

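The authors deposited linear intensities of 45101 probe sets on 2 arrays. Per the labels' protocols, 6 ug of total RNA gave the biotin-labelled cRNA. The sources used here do not give how the intensities were computed and scaled. Because the array medians differed by 34.1%, the 64 controls were set aside and the remaining 45037 probe sets were quantile normalized on the log2 scale, which removes any difference in total signal. Lower values took the value of the floor. A gene was represented by its probe set with the highest mean of both arrays. All measured members were named, and list genes from a log2 size of 0.58 upward (at most 5 a list). Members, lists and cell type markers were chosen with earlier results of these data known. Alternatives varied the scaling, the floor and the probe set. All 61 symbols matched the RefSeq table (GRCm38.p6), used for names and sequences. The number of arrays limits the precision. Software was Python 3.11.15 with numpy 2.4.6, pandas 2.3.3 and statsmodels 0.14.6 (loess span 0.3); the calculation was tested on simulated data.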

Additional observations from a re-analysis of the deposited data

How the results depend on the processing

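The members' median difference of 0.14 was 0.59 without scaling and 0.31 with scaling on hybridisation controls, where the median measured gene itself moved to 0.54 and 0.23. Relative to that gene it lay between 0.05 and 0.13 under each of 8 other settings. The count at least 2-fold higher, 0, was 3 without scaling, 1 with hybridisation controls and 3 with no floor. The count at least 2-fold lower, 1, was 4 with no floor, where values below the floor enter, 0 with the floor at the 75th percentile and 0 with averaged probe sets. Leaving out the opposite-strand genes, chosen after seeing the data, moved neither count. Of 277 alternative values for single members, 237 stayed within 1 probe set SD of the reported value and 40 did not, 35 of these under another scaling. Slc1a2 was lower wherever it was measured. No paired analysis was possible because each genotype has 1 array, so no replicate could be left out either. Signals near the floor carry the least information.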

Other observations

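Some measured members and listed carriers were grouped as lysosomal after the values were seen, with no test. Slc36a4 was included although it is described above only as found on inner membranes. The grouping was not checked for completeness, so no lysosomal pattern is read from its directions. Slc36a1 (0.09), Slc36a4 (0.77), Slc38a7 (0.39) and Slc38a9 (0.27) were higher in the knockout. So were Ctns, the cystine exporter gene (a difference of 0.35), Slc66a1, a carrier of cationic amino acids (268.1 and 299.2, 0.16), and Slc15a4, a histidine and peptide carrier (458.6 and 484.8, 0.08). Slc15a3, a related peptide carrier, was lower (7100 and 5793, -0.29). Of these 8 genes, 5 lay within the probe set SD, and all but Slc38a9 rest on 1 measured probe set each.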
